A study of Homo sapiens with 36 samples.

Results

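The Eph receptors and their ephrin ligands were followed as 9 named genes, the receptors EPHA2, EPHA4, EPHB2, EPHB3 and EPHB4 and the ligands EFNA1, EFNA5, EFNB1 and EFNB2. They were chosen by gene symbol, each through the array probe that carries that symbol alone. Of the 9 genes, 8 had such a probe among the 17958 genes tested, and EPHB2 was not analysed here. Their transcripts were read on 36 Affymetrix arrays from 3 human lines of breast cancer cells that lack the oestrogen receptor, MDA231 (MDA-MB-231), SUM159PT and BT549. Every culture was transfected with 10 nM siRNA and harvested 96 h later, and each line gave 4 groups of 3 arrays, lettered A, B and C. The siDUSP4 group received siRNA against DUSP4, a nuclear phosphatase that inactivates ERK, together with the vehicle DMSO. The selumetinib 4 h and 24 h groups received the non-targeting control siRNA and 1 uM selumetinib (AZD6244), an inhibitor of the ERK-activating kinases MEK1 and MEK2, for the last 4 h or 24 h. The siCONTROL group received the non-targeting siRNA and DMSO. The study asked how transcription changes when MEK is blocked and when DUSP4 is lost.

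Eph receptors form the largest family of receptor tyrosine kinases, and their ligands, the ephrins, are bound to the surface of neighbouring cells, so that contact between cells switches both partners on. Ephrins of the A class are tethered to the membrane by a lipid anchor and chiefly bind EphA receptors, whereas ephrins of the B class span the membrane, chiefly bind EphB receptors and signal back into the cell that carries them. The system is known for cell repulsion, adhesion and migration, and in breast cancer cells EPHA2 is known both as a receptor that EFNA1 restrains and as a promoter of migration without ligand.

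The windows around the start sites of the 4 members with the clearest changes are shown because they are the regulatory sequence nearest to the genes whose transcripts moved. Each runs 5′ to 3′ on the gene's strand from 250 bases before to 50 bases after the start site, taken from RefSeq on GRCh38.p14. The windows are chr1:16156020-16156319 (minus strand) for EPHA2, chr13:106535613-106535912 (minus strand) for EFNB2, chr1:155127626-155127925 (plus strand) for EFNA1 and chr5:107670888-107671187 (minus strand) for EFNA5. Capitals mark a match to the cyclic AMP response element.
EPHA2: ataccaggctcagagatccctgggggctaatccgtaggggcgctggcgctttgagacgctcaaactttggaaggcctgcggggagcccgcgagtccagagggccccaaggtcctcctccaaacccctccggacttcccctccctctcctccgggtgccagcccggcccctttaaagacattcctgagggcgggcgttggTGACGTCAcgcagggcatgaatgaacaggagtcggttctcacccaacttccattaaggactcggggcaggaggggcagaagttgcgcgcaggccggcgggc
EFNB2: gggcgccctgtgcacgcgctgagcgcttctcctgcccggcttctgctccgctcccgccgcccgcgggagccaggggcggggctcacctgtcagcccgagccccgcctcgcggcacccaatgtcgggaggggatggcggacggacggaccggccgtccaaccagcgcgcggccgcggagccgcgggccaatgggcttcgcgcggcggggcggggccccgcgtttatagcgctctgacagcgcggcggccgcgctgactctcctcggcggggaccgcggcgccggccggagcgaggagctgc
EFNA1: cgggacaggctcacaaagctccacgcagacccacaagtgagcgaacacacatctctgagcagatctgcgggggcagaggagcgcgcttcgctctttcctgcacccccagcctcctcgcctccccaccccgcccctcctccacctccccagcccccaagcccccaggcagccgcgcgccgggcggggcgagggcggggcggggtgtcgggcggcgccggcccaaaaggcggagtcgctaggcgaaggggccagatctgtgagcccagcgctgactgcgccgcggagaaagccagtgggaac
EFNA5: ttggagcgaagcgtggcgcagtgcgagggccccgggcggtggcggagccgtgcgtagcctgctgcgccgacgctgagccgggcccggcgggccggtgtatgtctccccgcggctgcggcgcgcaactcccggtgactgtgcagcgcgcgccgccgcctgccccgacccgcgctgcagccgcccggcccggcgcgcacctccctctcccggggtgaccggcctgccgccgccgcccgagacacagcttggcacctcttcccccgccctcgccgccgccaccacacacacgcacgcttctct
These windows were searched on both strands for 3 motifs, the AP-1 site TGANTCA, the ETS site CCGGAAG and the cyclic AMP response element TGACGTCA. AP-1 and ETS factors include well-known targets of ERK. All 8 measured members matched the RefSeq table, with 9 windows because EPHA4 has 2. The AP-1 letters occurred in 7.71% of all 35116 windows of the same length and in 0 of the members' windows, and the ETS letters in 10.3% and likewise in 0. The response element occurred in 1.85% of all windows and in 1 member, EPHA2, with its first base at position -51 relative to the start site. The EFNB2 window was 78.7% G and C with 49 CpG dinucleotides, the EPHA2 window 64.3% with 20, and the median G and C content over all windows was 58.7%. A match in these letters is a description of the sequence and not a measured binding site.

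For 24 arrays the sample titles and the source names disagree over SUM159PT and BT549. The titles were followed, and each statement on these 2 lines rests on that choice. In siCONTROL arrays RB1, lost in BT549 cells, stood at a log2 signal of 6.83 ± 0.16 in the arrays titled BT549, 10.31 ± 0.09 in MDA231 and 9.40 ± 0.01 in SUM159PT (SD, n = 3 each). Vimentin (VIM), a mesenchymal filament protein, was at 11.89 to 12.15 in siCONTROL means and the oestrogen receptor ESR1 at 4.09 to 4.31. The median probe level was 5.27 over the whole table. Of the other line markers, CD44 and ERBB2 were above that level on all 36 arrays and the epithelial marker EPCAM on 24. The epithelial marker CDH1 was above it on 2 arrays, the progesterone receptor PGR on 0 and CDKN2A on 12. DUSP4 changed by -2.42, -1.84 and -2.24 on the log2 scale after siDUSP4 in MDA231, SUM159PT and BT549, which left 18.7%, 27.9% and 21.1% of the siCONTROL level. Under selumetinib it also changed, by -2.35, -1.35 and -0.66 at 4 h and by -1.26, -0.85 and -0.72 at 24 h. The limma adjusted p was 0.062 in BT549 at 4 h and under 0.05 for the others. DUSP6, a phosphatase that ERK induces, changed by -4.53, -2.91 and -1.60 after 4 h of selumetinib in the same order of lines, and by -3.16, -2.28 and -0.96 after 24 h. Array upper quartiles ran from 7.48 to 8.03, and 2 selumetinib arrays stood lowest, array B of the MDA231 4 h group at 7.48 and array A of the BT549 24 h group at 7.50. The array from MDA231 gave the lowest value of its group for 7 of the 8 members and the array from BT549 for all 8. A fit without both, added after the data were seen, gained a call for 14 results of single members and lost one for 4, and its adjusted p is given for each of them. Nothing in the labels shows that the arrays lettered A, B and C came from separate cultures. The p-values here therefore weigh a change only against the spread of these arrays, possibly a technical one. With all arrays fitted, that spread was pooled for each gene over all 12 groups, although the groups differed in it. The EPHA2 SD, for example, was 0.52 on the MDA231 and 0.06 on the SUM159PT selumetinib 4 h arrays (n = 3 each).

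The lines differed in the level of most members on the siCONTROL arrays. By limma's F test over the 3 lines, with Benjamini-Hochberg adjustment over all genes, 7 of the 8 members differed in siCONTROL, beside 62.7% of all genes tested. EPHB3, an EphB receptor best known in the gut, was the exception (adjusted p = 0.86), and its log2 signal of 3.75 to 4.55 was below the median probe level on all 36 arrays. EPHA2 stood at 10.17 ± 0.13 in MDA231, 8.82 ± 0.09 in SUM159PT and 9.78 ± 0.29 in BT549 (log2 signal, SD, n = 3 each). SUM159PT was lower than the other lines (MDA231 minus SUM159PT 1.35, limma adjusted p = 3e-07), whereas MDA231 and BT549 were not separated (difference 0.38, limma adjusted p = 0.099). EFNA1, the principal EPHA2 ligand, was highest where EPHA2 was lowest, with 6.52 ± 0.11 in MDA231, 8.55 ± 0.07 in SUM159PT and 6.18 ± 0.15 in BT549. Its level in SUM159PT was 5.20 times that in BT549 (log2 difference 2.38, limma adjusted p = 1.9e-14), and MDA231 and BT549 were again not separated (difference 0.34, limma adjusted p = 0.085).

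The remaining ligands and receptors each had their own order of lines. EFNB1, a transmembrane ligand, was highest in SUM159PT at 7.28 ± 0.05, against 5.54 ± 0.04 in MDA231 and 5.94 ± 0.03 in BT549 (log2 signal, SD, n = 3 each), and all 3 pairs of lines differed. EFNB2, the main ligand of EPHB4, was highest in MDA231 at 8.04 ± 0.10. The SUM159PT and BT549 levels of EFNB2, 7.34 ± 0.08 and 7.18 ± 0.08, were not separated (difference 0.16, limma adjusted p = 0.27). EFNA5, a lipid-anchored ligand that also binds some EphB receptors, read 9.004 ± 0.066 in MDA231, 8.20 ± 0.06 in SUM159PT and 9.09 ± 0.16 in BT549, and the pair MDA231 and BT549 was not separated (difference -0.08, limma adjusted p = 0.68). EPHA4, a receptor that takes ligands of both classes, read 7.13 ± 0.12 in MDA231, 7.76 ± 0.04 in SUM159PT and 8.18 ± 0.06 in BT549. EPHB4, the receptor paired with EFNB2 in blood vessel development, read 7.64 ± 0.15 in MDA231, 8.48 ± 0.06 in SUM159PT and 8.04 ± 0.02 in BT549. All neighbours in these 2 receptor orders differed, and the least separated were EPHB4 in MDA231 and BT549 (difference -0.40, limma adjusted p = 0.030). Each array read RNA from a whole culture, so fewer cells with a transcript and less transcript per cell cannot be told apart.

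**Figure D1:**
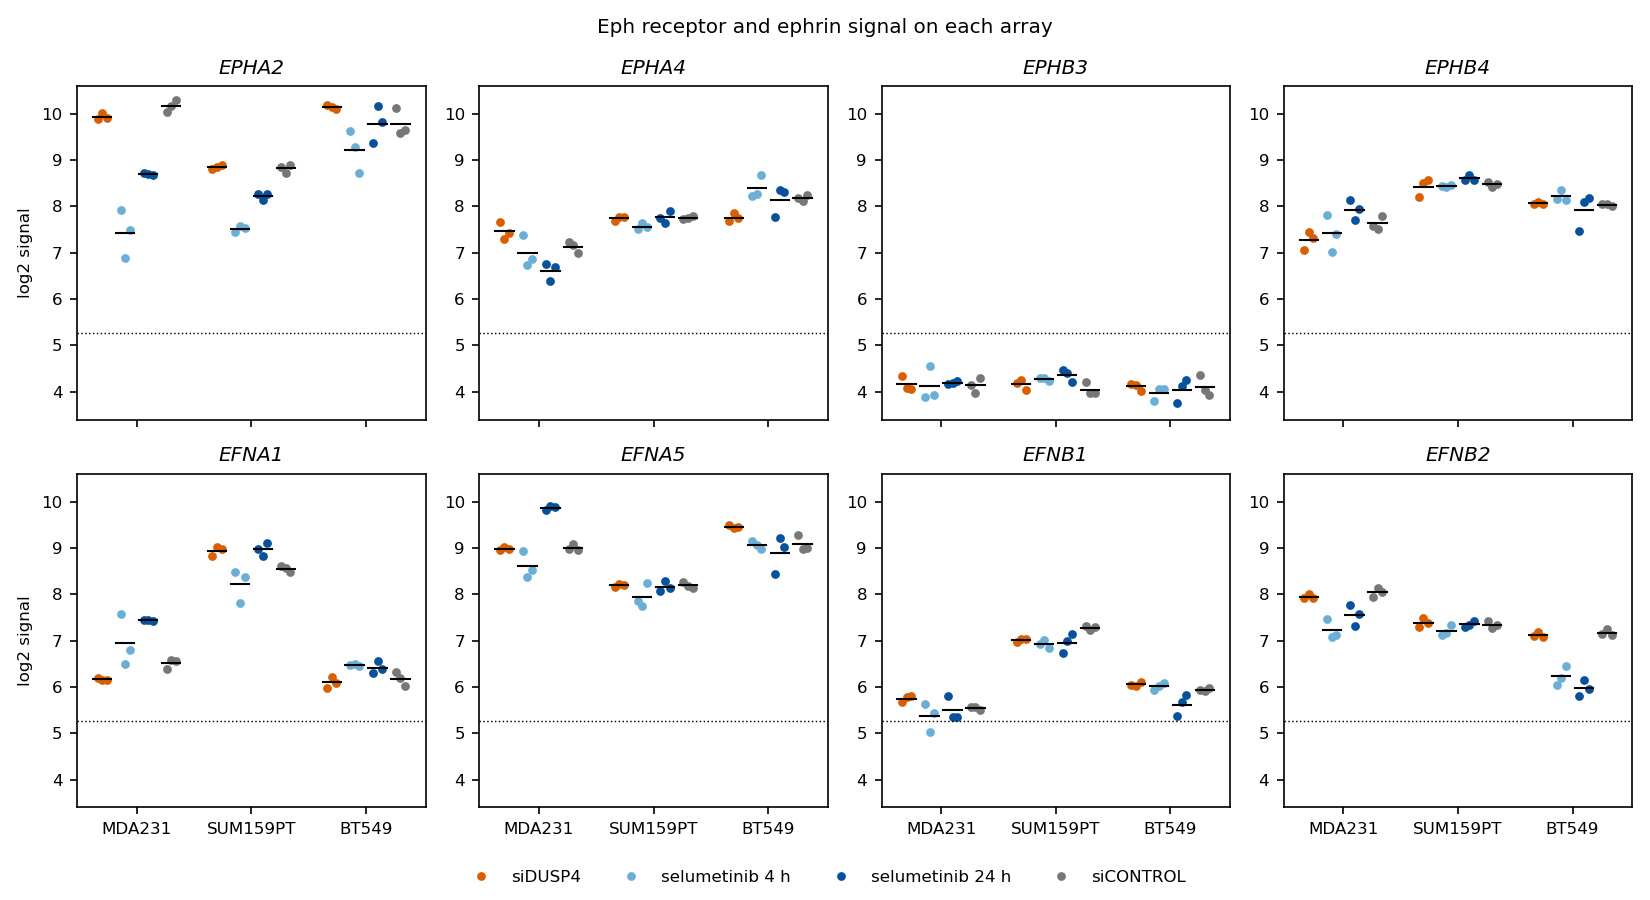
Log2 signal of the 8 measured Eph and ephrin genes on each of the 36 arrays, 1 point per array, grouped by cell line on the x axis and coloured by group, with a black bar at each group mean and a dotted line at the median probe level of 5.27. EPHA2 drops on the selumetinib arrays of MDA231 and SUM159PT, EFNB2 drops on those of MDA231 and BT549, EFNA5 is raised on the MDA231 24 h arrays, and EPHB3 stays under the dotted line throughout.

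Selumetinib lowered EPHA2 in MDA231 and SUM159PT and EFNB2 in MDA231 and BT549 within 4 h, and siDUSP4 moved 1 member in 1 line. Across the 8 members and 3 lines, 24 tests in each comparison, 4 results were lower and 0 higher at 4 h of selumetinib, 4 lower and 2 higher at 24 h, and 1 lower and 0 higher after siDUSP4 (limma, Benjamini-Hochberg adjusted p under 0.05). At 4 h the called members numbered 2 of 8 in MDA231, where 15.6% of all genes were called, 1 of 8 in SUM159PT, beside 4.28%, and 1 of 8 in BT549, beside 0.652%. At 24 h they numbered 5 of 8 in MDA231 beside 17.7%, 0 of 8 in SUM159PT beside 4.28%, and 1 of 8 in BT549 beside 15.1%. The 4 h count in MDA231 and the 24 h count in BT549 are therefore near the background share, and with 8 genes each count is small. At 4 h in MDA231 the number of all genes called itself ranged from 553 to 6573 when 1 array was left out. In SUM159PT at 24 h, 4 of the 8 members had an unadjusted limma p under 0.05, and the lowest adjusted p was 0.069. The median change over all genes was -0.13 in MDA231 at 4 h and between -0.09 and 0.02 in the other comparisons with selumetinib against siCONTROL.

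EPHA2 fell most in MDA231. On the log2 scale its signal in MDA231 was 7.92, 6.89 and 7.50 on the selumetinib 4 h arrays and 8.72, 8.70 and 8.67 on the 24 h arrays, against 10.03, 10.17 and 10.30 on the siCONTROL arrays. Every selumetinib array lay below every siCONTROL array, and the 24 h arrays lay above all 4 h arrays. The change against siCONTROL was -2.73 ± 0.19 (SE) at 4 h, which left 15.1% of the siCONTROL level (limma adjusted p = 4.4e-12), and -1.47 ± 0.19 at 24 h, which left 36.1% (limma adjusted p = 4.5e-07). Over 15 alternatives, among them the fit without the 4 h array B, the 4 h change ranged from -2.97 to -2.46.

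In SUM159PT the EPHA2 signal was 7.45, 7.58 and 7.54 on the selumetinib 4 h arrays and 8.26, 8.14 and 8.27 on the 24 h arrays, against 8.86, 8.72 and 8.89 on the siCONTROL arrays. The 3 groups did not overlap. EPHA2 fell by 1.30 ± 0.19 (SE) at 4 h, leaving 40.7% (limma adjusted p = 5.6e-05), while the 24 h change of -0.59 missed the threshold (limma adjusted p = 0.069, 95% interval -0.98 to -0.21). That 24 h value passed in 5 of 15 alternatives, among them the arrays of SUM159PT alone (adjusted p = 0.00036), the 2 SUM159PT groups alone (0.0050) and the fit without the 2 low arrays (0.0093). In BT549 EPHA2 read 9.63, 9.28 and 8.73 on the selumetinib 4 h arrays and 9.37, 10.16 and 9.83 on the 24 h arrays, against 10.12, 9.58 and 9.65 on the siCONTROL arrays, and the groups overlapped at both times. The 4 h change there was -0.57 (95% interval -0.96 to -0.19, limma adjusted p = 0.27), which passed without the 2 low arrays (adjusted p = 0.039), and the 24 h change was 0.00 (95% interval -0.38 to 0.39). The EPHA2 response differed between the lines at 4 h (limma F test, adjusted p = 2.1e-05, beside 1.84% of all genes called) and at 24 h (adjusted p = 9e-04, beside 9.91%). The 4 h change was lower in MDA231 than in SUM159PT (difference -1.43, limma adjusted p = 0.0028) and than in BT549 (difference -2.16, adjusted p = 6.3e-06), whereas SUM159PT and BT549 were not separated (difference -0.73, adjusted p = 0.29).

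Of the other receptors, EPHA4 fell under selumetinib in MDA231. EPHA4 in MDA231 read 6.76, 6.39 and 6.69 on the 24 h arrays, against 7.23, 7.17 and 7.003 on the siCONTROL arrays, with no overlap. The change of -0.52 ± 0.14 (SE) left 69.7% (limma adjusted p = 0.0094), and it missed the threshold without the 24 h array B (-0.41, adjusted p = 0.089), without the siCONTROL array A (-0.47, 0.051) and with the arrays of MDA231 alone (0.054). EPHA4 changes at 4 h ran from -0.19 to 0.21 over the 3 lines, and those at 24 h were 0.01 in SUM159PT and -0.04 in BT549, none past the threshold. Under selumetinib, EPHB4 changes against siCONTROL ran from -0.22 to 0.29 and EPHB3 changes from -0.14 to 0.32, again none past the threshold. The EPHB3 change of 0.32 in SUM159PT at 24 h passed with the arrays of that line alone (limma adjusted p = 0.042). EPHB4 at 24 h in MDA231 passed after quantile normalization (0.37, 0.0097). Without the 4 h array A, EPHB4 in MDA231 passed at 4 h (-0.42, limma adjusted p = 0.033).

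EFNB2 fell in MDA231 and in BT549. In BT549 its log2 signal was 6.04, 6.19 and 6.46 on the selumetinib 4 h arrays and 5.80, 6.15 and 5.95 on the 24 h arrays, against 7.15, 7.26 and 7.12 on the siCONTROL arrays. Both drug groups lay wholly below siCONTROL and overlapped each other. The change was -0.95 ± 0.12 (SE) at 4 h, leaving 51.9% (limma adjusted p = 1.7e-05), and -1.21 ± 0.12 at 24 h, leaving 43.3% (adjusted p = 1.7e-07). In BT549, 88 of 17958 genes were lower at 4 h (0.49%), EFNB2 among them.

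In MDA231 EFNB2 read 7.47, 7.07 and 7.12 on the selumetinib 4 h arrays and 7.76, 7.31 and 7.58 on the 24 h arrays, against 7.94, 8.13 and 8.06 on the siCONTROL arrays. All drug arrays lay below siCONTROL, and the 2 drug groups overlapped. The change was -0.82 ± 0.12 (SE) at 4 h, leaving 56.6% (limma adjusted p = 9.6e-06), and -0.49 ± 0.12 at 24 h, leaving 71.2% (adjusted p = 0.0022). In SUM159PT EFNB2 read 7.12, 7.18 and 7.34 on the 4 h arrays and 7.30, 7.33 and 7.43 on the 24 h arrays, against 7.41, 7.26 and 7.34 on the siCONTROL arrays. The groups overlapped, and the changes of -0.13 and 0.01 had 95% intervals of -0.37 to 0.11 and -0.22 to 0.25. The lines differed in this response at 4 h (limma F test, adjusted p = 0.0063) and at 24 h (adjusted p = 1.1e-05). At 24 h the change in SUM159PT was higher than in BT549 by 1.22 (limma adjusted p = 3.5e-05), and the change in MDA231 was higher than in BT549 by 0.72 (adjusted p = 0.0039). EFNB1 changes ran from -0.36 to 0.08 under selumetinib, and none passed the threshold with all arrays fitted. Its BT549 24 h value of -0.32 (limma adjusted p = 0.08) passed without the 24 h array C (-0.42, 0.03). In SUM159PT the EFNB1 changes of -0.36 at 4 h and -0.32 at 24 h passed with the arrays of that line alone (adjusted p = 0.025 and 0.045) and without the 2 low arrays (0.019 and 0.038).

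**Figure D2:**
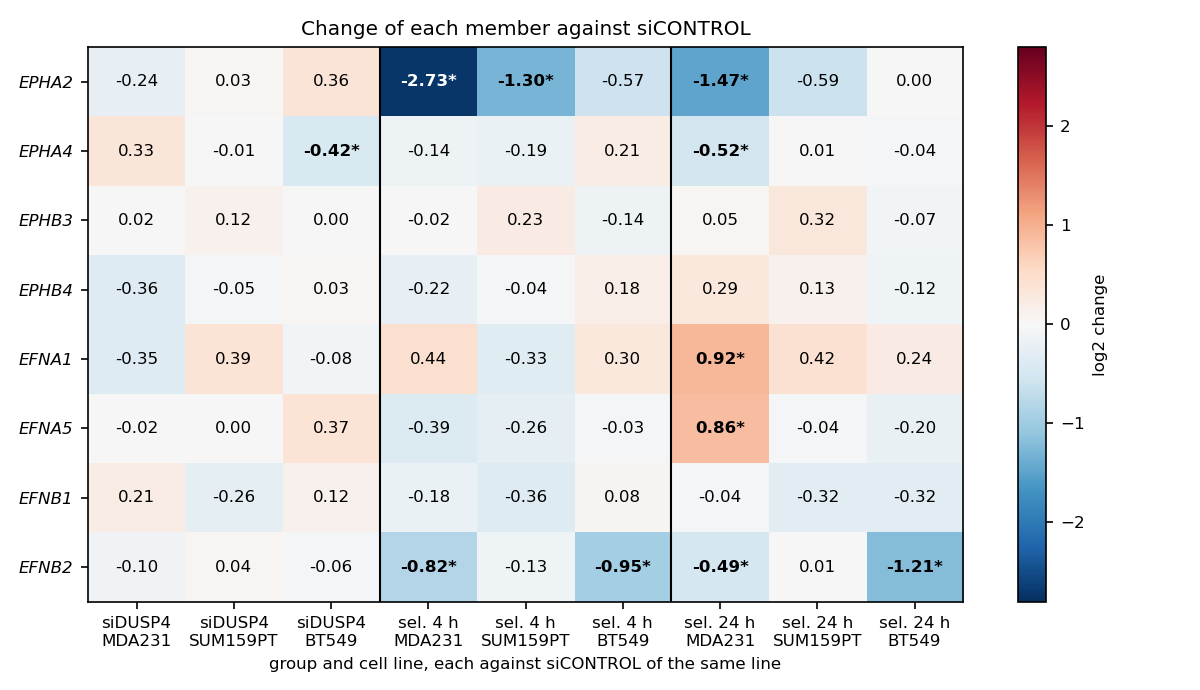
Log2 change of each of the 8 measured genes (rows) in siDUSP4, selumetinib 4 h and selumetinib 24 h arrays against siCONTROL arrays of the same line (columns), on a colour scale from blue (lower) to red (higher), with an asterisk and bold type where limma's adjusted p was under 0.05. The asterisks number 11 of 72, the deepest blue is EPHA2 in MDA231 at 4 h (-2.73), and the 2 called rises are EFNA1 (0.92) and EFNA5 (0.86) in MDA231 at 24 h.

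The A-class ligands EFNA5 and EFNA1 rose in MDA231 after 24 h. EFNA5 there read 9.82, 9.91 and 9.88 on the selumetinib 24 h arrays, against 8.98, 9.08 and 8.95 on the siCONTROL arrays, without overlap. The change was 0.86 ± 0.14 (SE), or 1.82 times the siCONTROL level (limma adjusted p = 1.9e-05). At 4 h EFNA5 had been at 8.94, 8.38 and 8.53, and the 4 h change against siCONTROL of -0.39 missed the threshold (limma adjusted p = 0.057), but passed in 4 of 15 alternatives (adjusted p = 0.0030 to 0.043), the lowest without the 4 h array A (-0.55). EFNA1 in MDA231 read 7.44, 7.45 and 7.42 on the 24 h arrays, against 6.40, 6.59 and 6.57 on the siCONTROL arrays, again without overlap. This was a rise of 0.92 ± 0.16 (SE), or 1.89 times (limma adjusted p = 6.8e-05). The EFNA1 4 h arrays were spread over 7.58, 6.49 and 6.80, and their change of 0.44 (limma adjusted p = 0.063) passed in 4 of 15 alternatives, among them the fits without array B (0.67, 0.012) and without the 2 low arrays (0.0088).

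In the other lines neither ligand passed the test. EFNA1 in SUM159PT read 8.99, 8.83 and 9.11 on the 24 h arrays, against 8.61, 8.57 and 8.48 on the siCONTROL arrays. These groups did not overlap, but the change of 0.42 missed the threshold (limma adjusted p = 0.16, 95% interval 0.09 to 0.75), and it passed after repeated quantile normalization (0.48, 0.021) and with the arrays of the 2 groups alone (0.023). The EFNA1 change in BT549 was 0.24 at 24 h (limma adjusted p = 0.32). EFNA5 changed by -0.04 in SUM159PT and -0.20 in BT549 at 24 h (limma adjusted p = 0.95 and 0.33). The EFNA5 response at 24 h differed between the lines (limma F test, adjusted p = 0.00049), being higher in MDA231 than in SUM159PT by 0.90 and than in BT549 by 1.06 (adjusted p = 0.003 and 0.00042). For EFNA1 at 24 h the lines were not separated (F test, adjusted p = 0.11). The endothelial marker PECAM1 also moved in MDA231, by -1.65 at 24 h (limma adjusted p = 1.8e-10) and by -0.78 after siDUSP4 (adjusted p = 0.00017), where the myeloid marker LYZ changed by 0.69 (adjusted p = 0.00014). In SUM159PT the leukocyte marker PTPRC changed by -0.62 after siDUSP4, -0.39 at 4 h and -0.52 at 24 h (limma adjusted p = 0.0010, 0.048 and 0.0069). Over the 36 arrays PECAM1 exceeded the median probe level on 24, PTPRC on 7 and LYZ on 2. The 8 measured markers of blood and endothelium summed to log2 levels of 34.9 to 35.7 on MDA231 24 h arrays, against 36.5 to 37.1 on siCONTROL arrays, and 6 of the 8 were below the median probe level on all arrays of both groups, while none was at 0. Their part in the members' changes was not tested.

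EPHA2 was higher after 24 h than after 4 h of selumetinib in MDA231 and SUM159PT, while still below siCONTROL in MDA231. At 24 h against 4 h, 5 of the 8 members were higher in MDA231, beside 20.4% of all genes called higher, 2 of 8 in SUM159PT beside 2.32%, and 0 of 8 in BT549 beside 1.91%. In BT549 1 of 8 was lower, beside 5.82%. EPHA2 was higher at 24 h than at 4 h by 1.26 in MDA231 (limma adjusted p = 7.5e-06) and by 0.70 in SUM159PT (adjusted p = 0.034). The SUM159PT value missed the threshold without any 1 of its 6 arrays (adjusted p = 0.074 to 0.13), although the groups did not overlap. In BT549 the EPHA2 difference of 0.57 missed the threshold (adjusted p = 0.055) and passed in 7 of 15 alternatives (adjusted p = 0.011 to 0.047), among them the fits without the 4 h array A (0.78, 0.032), without the 24 h array A (0.78, 0.040) and without the 2 low arrays (0.011). EFNA5 in MDA231 was higher by 1.25 (limma adjusted p = 4.9e-08), with every 24 h array above every 4 h array.

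Each of the other called differences between the times missed the threshold in some alternative. EFNA1 in SUM159PT was higher by 0.75 (limma adjusted p = 0.0051) and kept its call in 14 of 15 alternatives. It missed the threshold only without the 4 h array B (0.55, 0.087). In MDA231 EPHB4, EFNA1 and EFNB2 were higher by 0.51, 0.48 and 0.33 (limma adjusted p = 0.013, 0.028 and 0.035). Without the 4 h array B these 3 differences were 0.32, 0.25 and 0.26, none past the threshold (adjusted p = 0.18, 0.32 and 0.18), and likewise without the 2 low arrays (0.073, 0.29 and 0.14). They also missed it with the arrays of MDA231 alone (adjusted p = 0.07, 0.11 and 0.13). Without the 24 h array A, the adjusted p-values of the same 3 were 0.076, 0.056 and 0.19. EPHA4 in MDA231 differed by -0.38 (limma adjusted p = 0.054) and passed without the 4 h array B (-0.51, 0.022), without the 24 h array A (-0.45, 0.041) with the replicate letter as a block (0.021), without the 2 low arrays (0.0064) and in 3 other alternatives of 15. EFNB1 in BT549 was lower by 0.40 (limma adjusted p = 0.048), and it missed the threshold in 10 of 15 alternatives, with a difference of -0.27 without the 24 h array A (0.26) and without the 2 low arrays (0.15). Over all comparisons, 11 of the 19 called values of single members kept their call under each of 15 alternatives. Among those alternatives, the mean of a gene's probes could not alter a member's change, since each measured member had 1 probe. These 11 included every called value of EPHA2, EFNB2, EFNA1 and EFNA5 against siCONTROL.

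**Figure D3:**
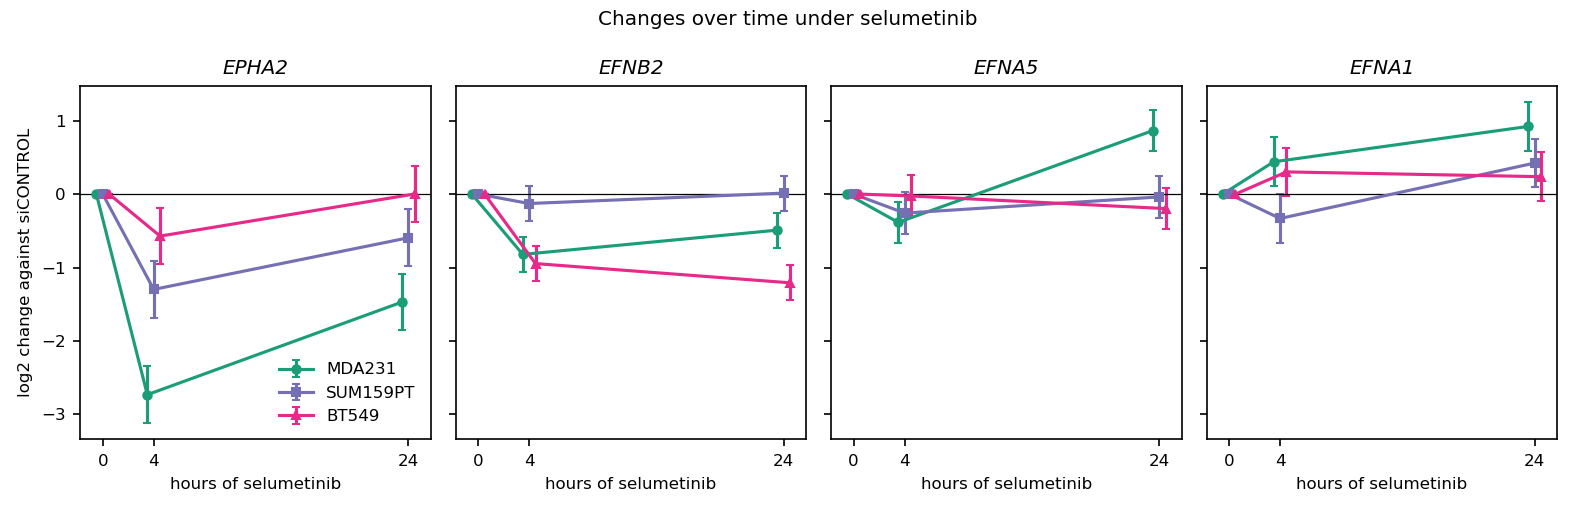
Log2 change against siCONTROL (y axis) of EPHA2, EFNB2, EFNA5 and EFNA1 at 4 h and 24 h of selumetinib (x axis, hours), with siCONTROL drawn as 0 at 0 h, lines joining the group means of each cell line and bars for limma's 95% intervals. The mean EPHA2 change is lowest at 4 h in all 3 lines and nearer to 0 at 24 h, with BT549 not past the threshold at either time, EFNB2 in BT549 stays low at 24 h (-1.21), and EFNA5 in MDA231 is below 0 at 4 h (-0.39) and above it at 24 h (0.86).

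After siDUSP4, 1 of 8 members changed in BT549, beside 14.2% of all genes called, 0 of 8 in MDA231 beside 17.6% and 0 of 8 in SUM159PT beside 2.83%. Each share is at or below the background. At an unadjusted limma p under 0.05 the counts were 2 in BT549, 3 in MDA231 and 2 in SUM159PT. EPHA4 in BT549 read 7.69, 7.85 and 7.74 on the siDUSP4 arrays, against 8.19, 8.12 and 8.24 on the siCONTROL arrays, without overlap. The change was -0.42 ± 0.14 (SE), leaving 74.7% (limma adjusted p = 0.047). It missed the threshold without any 1 of these 6 arrays (adjusted p = 0.068 to 0.16) and with the arrays of BT549 alone (0.10). The count of members called after siDUSP4 was also 0 without any 1 of the 6 SUM159PT arrays of these groups. In MDA231 EPHA4 read 7.67, 7.30 and 7.43 on siDUSP4 arrays, against 7.23, 7.17 and 7.003 on siCONTROL arrays. The groups did not overlap and the change of 0.33 missed the threshold (limma adjusted p = 0.12), but passed after quantile normalization (0.012) and without the 2 low arrays (0.042). EPHB4 in MDA231 changed by -0.36 (limma adjusted p = 0.11) and passed in the same 2 alternatives (0.018 and 0.017). The siDUSP4 effect on EPHA4 differed between the lines (limma F test, adjusted p = 0.029, beside 15.5% of all genes called), and was higher in MDA231 than in BT549 by 0.75 (adjusted p = 0.012). The F test missed the threshold without any 1 of 5 arrays, the MDA231 siCONTROL C and siDUSP4 A and the BT549 siCONTROL C, siDUSP4 A and siDUSP4 C (adjusted p = 0.059 to 0.089).

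EPHA2 and EFNB2, which selumetinib lowered at 4 h, did not pass the test after siDUSP4 in any line. The EPHA2 changes were -0.24, 0.03 and 0.36 in MDA231, SUM159PT and BT549, with 95% intervals of -0.62 to 0.15, -0.35 to 0.42 and -0.02 to 0.75. The EFNB2 changes were -0.10, 0.04 and -0.06, with 95% intervals that lay between -0.34 and 0.28. EFNA1 after siDUSP4 read 6.20, 6.15 and 6.14 in MDA231, against 6.40, 6.59 and 6.57 on siCONTROL arrays. In SUM159PT it read 8.84, 9.03 and 8.97, against 8.61, 8.57 and 8.48. Neither pair of groups overlapped, but the changes of -0.35 and 0.39 missed the threshold (limma adjusted p = 0.15 and 0.25), and so did the F test over the 3 lines (adjusted p = 0.060), although the effect was lower in MDA231 than in SUM159PT (difference -0.74, limma adjusted p = 0.045). Both EFNA1 changes passed with the 2 groups alone (adjusted p = 0.018 and 0.017), and the one in MDA231 after quantile normalization (0.042). The EFNA1 F test passed in 4 of 25 alternatives, with adjusted p-values of 0.0096 to 0.043 and of 0.017 without the 2 low arrays. The EFNB1 F test passed in 2 (adjusted p = 0.048 after quantile normalization and 0.026 without the 2 low arrays). EFNA5 in BT549 read 9.50, 9.44 and 9.45 on siDUSP4 arrays, against 9.27, 8.99 and 9.003 on siCONTROL arrays, without overlap. Its change of 0.37 missed the threshold (limma adjusted p = 0.070) and passed in 6 of 15 alternatives (adjusted p = 0.0031 to 0.047), among them the fits without the siCONTROL array A (0.47, 0.040) and without the 2 low arrays (0.0094). Both drug arms and the siDUSP4 arm share the siCONTROL arrays of their line, so their values are given side by side only. The mean DUSP4 signal was also lower than in siCONTROL in both drug arms of each line.

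Of the 13 other Eph and ephrin genes, all measured, 0 to 1 passed the test in each selumetinib comparison against siCONTROL, beside 0.652% to 17.7% of all genes. After siDUSP4 it was 2 in MDA231, 0 in SUM159PT and 5 in BT549, beside 17.6%, 2.83% and 14.2%, and all but 1 of these, in BT549, were lower. EPHA5, a neuronal receptor for A-class ligands, was at 9.15 ± 0.17 on siCONTROL arrays of BT549, compared with 5.19 ± 0.09 in MDA231 and 4.71 ± 0.07 in SUM159PT (log2 signal, SD, n = 3 each). In BT549 EPHA5 rose by 0.51 after siDUSP4 (limma adjusted p = 0.011) and fell by 0.70 after 24 h of selumetinib (adjusted p = 0.0022). EPHA3, another EphA receptor, fell by 0.84 after siDUSP4 in BT549 (limma adjusted p = 9.3e-05). The ligand EFNA3 changed by -0.65 after siDUSP4 and by 0.41 after 24 h of selumetinib in MDA231 (limma adjusted p = 0.001 and 0.04). The ligand EFNA4 fell after siDUSP4 by 0.53 in MDA231 and by 0.50 in BT549 (limma adjusted p = 0.013 and 0.024). The median change of these 13 genes lay between -0.08 and 0.23 over the 9 comparisons against siCONTROL, beside -0.13 to 0.02 for all genes tested.

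Genes that carry the Eph signal into the cell were followed as a list of 36, of which 32 were measured. Selumetinib at 4 h lowered 8 of them in MDA231, 2 in SUM159PT and 0 in BT549, beside 14.5%, 3.81% and 0.49% of all genes, and raised 0 in any line. At 24 h it lowered 6 in MDA231, 1 in SUM159PT and 7 in BT549, beside 10.3%, 2.94% and 12.4% of all genes. It raised 2, 0 and 0 in that order of lines, beside 7.36%, 1.34% and 2.66%. After siDUSP4 the numbers lowered were 6, 2 and 4, beside 9.77%, 1.78% and 9.22%, and the numbers raised were 4, 1 and 2, beside 7.86%, 1.05% and 4.97%. VAV2, a signalling protein that active Eph receptors recruit, fell after siDUSP4 in all 3 lines, by 1.12 in MDA231, 0.69 in SUM159PT and 0.47 in BT549 (limma adjusted p = 3.2e-08, 0.00046 and 0.0069), and after 24 h of selumetinib in MDA231, by 0.57 (adjusted p = 0.00076). TIAM1, a Rac exchange factor that binds EPHA2 and ephrin-B ligands, fell by 0.91 in MDA231 and by 0.67 in SUM159PT after 24 h of selumetinib (limma adjusted p = 1.4e-06 and 0.00094), and by 0.59 in MDA231 after 4 h (adjusted p = 0.0020). SIPA1L1, a Rap GTPase-activating protein that acts downstream of EPHA4, fell by 0.72 after siDUSP4 in MDA231 (limma adjusted p = 1.3e-05). FYN, a Src-family kinase, fell by 0.52 in BT549 after 24 h of selumetinib (limma adjusted p = 0.0013). FYN also fell after siDUSP4, by 0.35 in SUM159PT and by 0.35 in BT549 (limma adjusted p = 0.043 and 0.015).

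As a yardstick for the drug, 12 genes that ERK is known to induce were read in the same arrays. Selumetinib lowered 12 of them in MDA231, 9 in SUM159PT and 7 in BT549 at 4 h, beside 14.5%, 3.81% and 0.49% of all genes. At 24 h it lowered 11, 8 and 7, beside 10.3%, 2.94% and 12.4%, and it raised 0 at either time. Their median change at 4 h was -1.21 in MDA231, -1.07 in SUM159PT and -0.71 in BT549, beside -2.73, -1.30 and -0.57 for EPHA2 and -0.82, -0.13 and -0.95 for EFNB2. By value alone, the order of lines for EPHA2 was that of this list, and the order for EFNB2 was not. No test was made of that difference in order. For EPHA2, SUM159PT and BT549 were not separated at 4 h (limma adjusted p = 0.29). For EFNB2, MDA231 and BT549 were not separated at 4 h (difference 0.12, limma adjusted p = 0.76). SUM159PT differed from both in EFNB2 (MDA231 minus SUM159PT -0.69, SUM159PT minus BT549 0.82, limma adjusted p = 0.024 and 0.013). After siDUSP4, 3 of the 12 were lower in MDA231, 1 in SUM159PT and 1 in BT549, beside 9.77%, 1.78% and 9.22% of all genes. In BT549 1 was higher, beside 4.97%. EGR1 changed by -1.13 in MDA231 and by 1.31 in BT549 (limma adjusted p = 8.4e-06 and 1.1e-06).

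The genes whose pattern was most like that of each member called against siCONTROL were sought among 11496 genes above the median probe level, by Pearson's r over the 12 group means after each line's own mean was subtracted. The 12 means come from 36 shared arrays, so these values describe likeness only. EPHA2 was most like RFFL (r = 0.966) and SPRY4 (r = 0.960), and SPRY4 encodes a feedback inhibitor of the ERK pathway and a member of the ERK-induced list. EFNB2 was most like ELK1 (0.954), an ETS transcription factor that ERK phosphorylates, and SLC25A24 (0.939), a mitochondrial carrier. EFNA5 was most like BLVRA (0.960) and AP3S1 (0.954), and EFNA1 was most like INPP5J (0.945) and DCAF5 (0.938). EPHA4 was most like the pseudogene ABCA15P (0.965) and MIIP (0.948). Among pairs of members, r over the same 12 means was highest for EPHB4 and EFNA5 (0.72), followed by EPHB4 and EFNA1 (0.65). EPHA2 and EFNB2 (0.62) and EFNB1 and EFNB2 (0.60) came next, and the lowest r was that of EPHA4 and EFNA5 (-0.59).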

How the data were processed

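The authors deposited log2 signals, 1 per probe and array, which came from RMA as run by Expression Console 1.1 of Affymetrix (per the submitters' processing notes). The sources used here give neither its settings nor the genome build behind the array. Of 33297 probes, 19181 carry 1 gene symbol in the platform annotation, 2055 several, and the rest none here. Each gene was read by its probe with the highest overall mean, giving 17958 genes, with no filter on dim genes. Each measured member had 1 such probe. Array medians ran from 5.12 to 5.40, and the number of arrays limits the precision.

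With limma 3.58.1 in R 4.3.3, a mean for each of 12 groups was fitted to all 36 arrays by lmFit and eBayes, with 24 residual degrees of freedom and 7.80 from the prior. Moderated tests compared groups within a line, F tests compared lines, and p-values were adjusted by Benjamini-Hochberg over all genes of a comparison. Results under an adjusted p of 0.05 were called. The fit was tested on simulated data. No exact test was run, since with 3 arrays on each side its p cannot be under 0.1. The members, the gene lists and the tests were chosen with earlier results of these data known. Named outside the members were DUSP4 and DUSP6 as checks, and RB1, VIM, ESR1, CD44, ERBB2, EPCAM, CDH1, PGR and CDKN2A as line markers. Of the blood and endothelium markers, PECAM1, LYZ and PTPRC were named, those called against siCONTROL. Also named were the 2 genes most like each called member, and up to 4 genes of each list with the smallest p against siCONTROL. Of the ERK-induced list, DUSP6, EGR1, SPRY4 and DUSP5 met that rule.

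Same-lettered arrays were compared by the correlation of their deviations from the group means. In 9 of 36 pairs it was over 0.1, and in 1 of 12 comparisons, selumetinib 4 h against siCONTROL in SUM159PT, this held for all 3 pairs. The values reported for that comparison still come from the fit without pairing. With the letter as a replicate block, no call of a member in that comparison changed. Every comparison of groups within a line was recomputed with only the line's arrays and with only the 2 groups compared. These and the F tests were recomputed with the letter as a replicate block, after a further quantile normalization and after aligning array medians. They were also refitted on genes above the median probe level, on the mean of a gene's probes and with an intensity trend in the prior. Last, each array of the groups compared was left out in turn. The single arrays left out for a member's change were thus those of its own 2 groups. Leaving out the 2 arrays of lowest upper quartile was added after the data were seen.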

Additional observations from a re-analysis of the deposited data

Results flagged for a closer look

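The following responses differed between the cell lines by limma's F test, with Benjamini-Hochberg adjustment over all genes. The EPHA2 response to selumetinib did so at 4 h (adjusted p = 2.1e-05; changes of -2.73 in MDA231, -1.30 in SUM159PT and -0.57 in BT549) and at 24 h (adjusted p = 9e-04; changes of -1.47, -0.59 and 0.00 in the same order of lines). The EFNB2 response did so at 4 h (adjusted p = 0.0063; changes of -0.82, -0.13 and -0.95) and at 24 h (adjusted p = 1.1e-05; changes of -0.49, 0.01 and -1.21). The EFNA5 response at 24 h differed too (adjusted p = 0.00049; changes of 0.86, -0.04 and -0.20). For EPHA4 the siDUSP4 effect differed (adjusted p = 0.029; changes of 0.33, -0.01 and -0.42), and of 25 alternatives 20 kept that call. The F tests of the EPHA2, EFNB2 and EFNA5 results kept their calls in all 25 alternatives run for each.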

How the results depend on the processing

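Among 19 called values of single members, 11 kept their call in all 15 alternatives, and of 77 values not called, 58 stayed so. No result changed direction among called values. EPHA4 after siDUSP4 in BT549 (adjusted p = 0.0057 to 0.16), EPHA4 at 24 h in MDA231 (0.00092 to 0.089) and 6 of the 8 differences between 24 h and 4 h lost their call somewhere. EPHB4 at 24 h in MDA231 (0.37, adjusted p = 0.0097) and the line difference of EFNA5 after siDUSP4 (0.038) passed under repeated quantile normalization and no other alternative. The lines differed in EPHA4 at 24 h without BT549 24 h array A (0.033) after quantile normalization (0.0032) and without the 2 low arrays (0.016), and in EFNA1 at 4 h without MDA231 4 h array A or B (0.017 and 0.020), after quantile normalization (0.031) and without the 2 low arrays (0.014).

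With the replicate block the member calls numbered 1 after siDUSP4, 4 at 4 h, 6 at 24 h and 9 for 24 h against 4 h, where EPHA4 in MDA231 joined (adjusted p = 0.021), and the block changed no other member's call against siCONTROL. It raised or lowered no count of calls by over 1.5 times. Of 36 same-letter pairs, 12 correlated best with their own letter.

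The member calls after siDUSP4 numbered 0 with the arrays of the line only, 5 with the 2 groups only, 5 with repeated quantile normalization, 2 with aligned medians, 2 with genes above the median probe level and 4 without the 2 arrays of lowest upper quartile. Member calls for 24 h against 4 h numbered 4 with the line only and 4 with the 2 groups only, and those at 4 h numbered 7 without the 2 arrays. Members with a line difference after siDUSP4 numbered 4 with quantile normalization, 2 with aligned medians, 2 above the median probe level and 3 without the 2 arrays.

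Counts over all genes moved more. In MDA231, siDUSP4 called 1838 genes with the line only, against 3166. Selumetinib at 4 h called 475 with the line only, 149 with the 2 groups only and 908 without the 2 arrays, against 2798. At 24 h it called 2052 with the line only, against 3180, and 24 h against 4 h called 2526 and 924 with the line and the 2 groups only, against 4471. In SUM159PT, siDUSP4 called 1333 with the line only, 1558 with the 2 groups only, 1085 with quantile normalization and 1049 without the 2 arrays, against 509. Selumetinib at 4 h called 2694, 2074 and 1882 with the line only, the 2 groups only and without the 2 arrays, and 1201 with aligned medians, against 769. At 24 h it called 1937, 1848, 1384 and 1595 with the line only, the 2 groups only, quantile normalization and without the 2 arrays, against 768. For 24 h against 4 h the counts were 1610 with the line only, 1078 with quantile normalization and 1244 without the 2 arrays, against 540. In BT549, selumetinib at 4 h called 24 with the line only, 303 with quantile normalization and 297 without the 2 arrays, against 117. At 24 h it called 1379, 15, 1267 and 1127 with the line only, the 2 groups only, quantile normalization and without the 2 arrays, against 2713. For 24 h against 4 h the counts were 529, 0, 378 and 607 in the same order, against 1389, and where limma called 0 genes, 2842 had an unadjusted p under 0.05. Line differences numbered 4408 with quantile normalization and 4528 without the 2 arrays after siDUSP4, against 2790, and 758 and 555 at 4 h, against 331. The fits on fewer arrays estimate the spread from fewer samples, yet their counts rose in some comparisons and fell in others. The cause of these shifts was not tested for any setting.

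With each array left out in turn, the member calls ranged from 0 to 1 after siDUSP4, 4 to 6 at 4 h, 5 to 7 at 24 h and 5 to 9 for 24 h against 4 h. The siDUSP4 count was 0 without any 1 of 14 arrays out of 18, among them all 6 of SUM159PT, and the count of 5 came without the SUM159PT 4 h array B. Members with a line difference ranged from 0 to 1, 2 to 3 and 3 to 4 in the same order of treatments and stayed at 7 in siCONTROL. Over all genes the counts ranged in MDA231 from 2308 to 2666 (siDUSP4), 553 to 6573 (4 h), 2441 to 3045 (24 h) and 2819 to 6646 (24 h against 4 h). The MDA231 4 h count was 6573 without the 4 h array A, 553 without B and 1050 without C, and 1501 without the siCONTROL array B, and the 24 h against 4 h count was 2819 without the 4 h array B. They ranged in SUM159PT from 290 to 339, 181 to 644, 351 to 492 and 297 to 389, lower than with all arrays, and in BT549 from 1548 to 2429, 46 to 100, 544 to 3746 and 278 to 2369. In BT549 the siDUSP4 count was 1548 without the siCONTROL array B, and the 24 h count was 572 and 1421 without the siCONTROL arrays B and C and 544 without the 24 h array A. The 24 h against 4 h count in BT549 was 474, 502 and 388 without the 4 h arrays A, B and C, and 278 and 2369 without the 24 h arrays A and C. Line differences ranged from 2127 to 2864 (siDUSP4), 185 to 3834 (4 h, the highest without the MDA231 4 h array A), 1347 to 2113 (24 h) and 10828 to 11030 (siCONTROL).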
